A study of Mus musculus with 9 samples.

Results

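The transcriptome of the normal dorsal root ganglion (DRG) late in mouse gestation was described from the 3 WT libraries among the 9 libraries of the series. The members were chosen by genotype label alone, and every annotated gene of these 3 libraries was ranked. The study sequenced poly(A) RNA of whole DRGs dissected from E18.5 embryos of 3 genotypes, and the 3 WT libraries, called libraries 1, 2 and 3 after their labels, carry the genotype label WT, as against embryos with the Isl1Cre allele alone or with LoxP alleles of Meis2 as well, which were not used. The labels give no strain, sex, litter or axial level, and do not say whether each library is 1 embryo or a pool, so the spread between libraries may be technical as well as biological.

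A DRG holds the cell bodies of the sensory neurons that carry touch, temperature, pain and limb position to the spinal cord. Each neuron is wrapped by satellite glia, its axon is accompanied by Schwann cells, and the ganglion is invaded by vessels and enclosed in a connective tissue capsule. By late gestation the neurons are postmitotic, and they are being sorted into classes by the trophic factor receptors, transcription factors and ion channels they keep. In a bulk library, fewer cells of a type and less RNA per cell cannot be told apart.

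The libraries held 29103444, 27819209 and 28126910 counts after the removal of duplicates by the authors. A gene is given below in counts per 1000000 of the library total (cpm) when it is followed across libraries, and in TPM (counts divided by exon length and scaled to a sum of 1000000) when it is set beside another gene. Of 55247 genes in the table, 14330 reached 1 cpm in all 3 libraries and 25032 had no count in any of them. The genes at 1 cpm included 13413 of 21899 protein-coding genes and 211 of 5621 lincRNA genes, and their median mean level was 20.99 TPM. Protein-coding genes took 98.5%, 98.5% and 98.6% of the counts of libraries 1, 2 and 3.

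The libraries were not alike. Library 1 stood apart from the other two, with 8.57% of its counts on mitochondrially encoded genes against 3.83% in library 2 and 3.09% in library 3. Across the 12736 genes with a mean of at least 100 counts, the rank correlation was 0.992 between libraries 2 and 3, 0.978 between libraries 1 and 2, and 0.975 between libraries 1 and 3. The mean chi-square per degree of freedom, which is near 1 where counting error alone separates a pair of libraries, was 14.03 between libraries 2 and 3, 112 between libraries 1 and 2, and 133 between libraries 1 and 3. The medians over genes were lower, at 1.46, 12.3 and 13.8 in the same order. The value of 1 applies to the mean, and under counting error alone the median would lie below 1. Each pair thus differed by more than counting error, and no library was a copy of another. The biological coefficient of variation estimated by edgeR over the same 12736 genes, after its own scaling (TMM), was 16.3% with all 3 libraries. It was 9.62% without library 1, 19.04% without library 2 and 18.0% without library 3. Library 3 also held Xist at 351 cpm and no count of the 4 Y-linked genes examined, whereas libraries 1 and 2 held the reverse.

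The label of the tissue was met by its markers. Isl1 and Pou4f1, homeodomain transcription factors of sensory neurons, Prph, the intermediate filament peripherin of peripheral neurons, and Fabp7, a fatty acid binding protein of satellite glia, were all abundant. Prph was at 2798, 2002 and 1861 cpm in libraries 1, 2 and 3, or 4011 ± 518 TPM (SD, n = 3), and ranked 11 among all genes. It was highest in library 1 and close in the other two. Fabp7 was at 321, 296 and 296 cpm, or 889 ± 40.6 TPM, and ranked 106. Pou4f1 was at 245, 264 and 251 cpm, or 199 ± 23.5 TPM, and ranked 753. Isl1 was at 207, 278 and 291 cpm, or 242 ± 61.0 TPM, and ranked 591. Isl1 was lowest in library 1, by 1.40 times from the highest library, whereas Fabp7 and Pou4f1 each differed by 1.08 times between their extremes. In the mm10 assembly, Isl1 lies on the minus strand at chr13:116298281-116309689, Pou4f1 on the minus strand at chr14:104461676-104467999, Prph on the plus strand at chr15:99055174-99058978 and Fabp7 on the plus strand at chr10:57784881-57788450.

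The highest levels per length were those of mitochondrially encoded genes, led by mt-Nd1 and mt-Cytb, which encode a subunit of complex I and cytochrome b, and by mt-Co1, a subunit of cytochrome oxidase. In library 1, mt-Nd1, mt-Cytb and mt-Co1 were at 15818, 21090 and 17528 cpm. In library 2 they were at 7964, 7944 and 8308 cpm, and in library 3 at 6417, 6221 and 6656 cpm. All 3 genes were thus at least 1.5 times higher in library 1 than in either other library. Since nuclear copies of mitochondrial sequence exist and only uniquely mapped reads were counted, levels between mitochondrial genes are uncertain. In library 1, mt-Co2, mt-Co3, mt-Atp6, mt-Atp8 and mt-Nd4l had only 67, 45, 87, 19 and 6 counts, against 510129 for mt-Co1. The mitochondrial share and this ranking thus rest on the genes that kept reads.

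Among the 15 nuclear genes with the highest mean TPM, Nefl, the light neurofilament chain, came first at 6016 ± 1069 TPM. It was at 7401 cpm in library 1, 4492 cpm in library 2 and 5039 cpm in library 3. Calm2, one of the genes for calmodulin, followed at 4983 ± 571 TPM, and Sncg, gamma-synuclein, at 4510 ± 1174 TPM. Hsp90ab1, a chaperone, was at 4332 ± 40.6 TPM, ahead of Prph. Tmsb4x and Tmsb10, actin-binding thymosins, were at 3794 ± 889 and 2943 ± 539 TPM. The adult beta-globin chain Hbb-bs, a product of red cells, was at 3553 ± 1024 TPM. Eef1a1, the elongation factor that brings aminoacyl-tRNA to the ribosome, was at 3213 ± 102 TPM. Nefm, the medium neurofilament chain, was at 3199 ± 1075 TPM, and the tubulins Tubb5 and Tuba1a were at 3019 ± 427 and 2838 ± 659 TPM. The imprinted long non-coding RNA H19 was at 2863 ± 850 TPM. Uchl1, a deubiquitinase that is among the most abundant neuronal proteins, was at 2856 ± 430 TPM, and Stmn3, a stathmin that binds tubulin, was at 2497 ± 114 TPM. Of these 15 genes, 14 stayed among the highest 15 when the longest annotated transcript was used as the length and 7 when cpm was not divided by length. In all, 74 nuclear genes were above 1000 TPM.

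**Figure D1:**
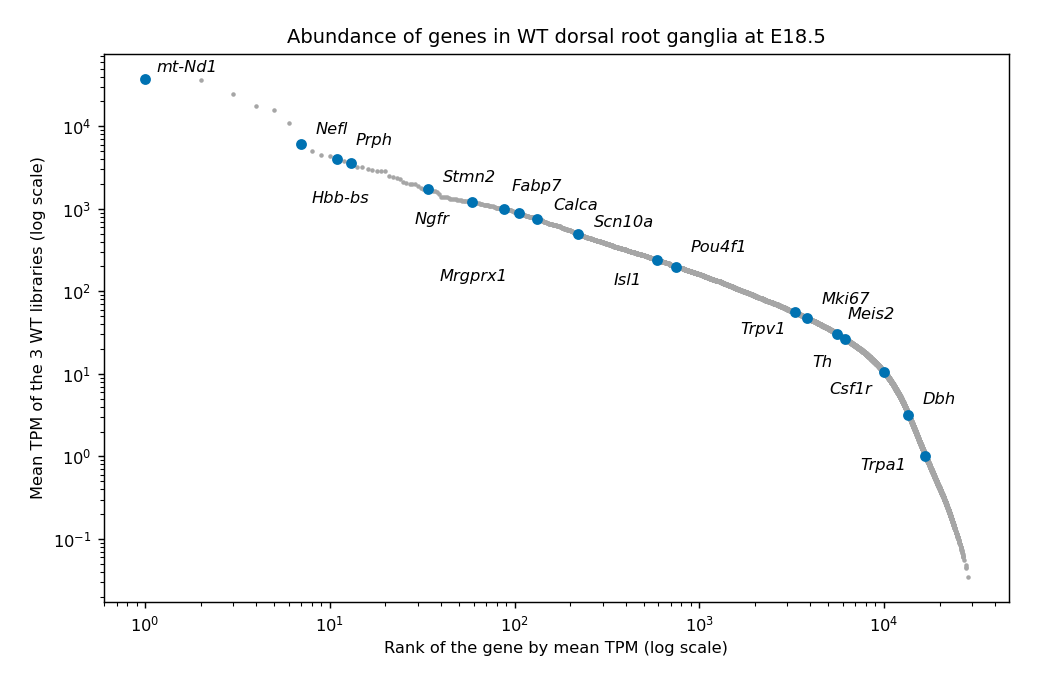
Mean TPM of the 3 WT libraries (vertical axis, log scale) against the rank of the gene (horizontal axis, log scale), with each gene of at least 5 counts on average as a grey point and named genes in blue. Prph and Nefl lie among the first 11 genes, Fabp7 near rank 106, Isl1 and Pou4f1 between ranks 591 and 753, and Meis2 at rank 5569.

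Marker genes were summed by list to follow each cell type across libraries. Sums of different lists depend on the genes chosen and their length and give no shares of cell types. The 11 sensory neuron markers that were found summed to 10505, 9826 and 9366 cpm in libraries 1, 2 and 3, and all 11 were at 1 cpm or more in each library. Uchl1, Tubb3 (the neuronal beta-tubulin) and Stmn2 were the other leading members beside Prph, at 2856 ± 430, 2435 ± 111 and 1744 ± 185 TPM. The 8 fibroblast markers summed to 3583, 3120 and 4487 cpm, led by the collagen chains Col1a1, Col3a1 and Col1a2. The 12 satellite glia markers summed to 2041, 1833 and 1990 cpm. Apoe, which carries lipids, led them at 1188 ± 194 TPM, ahead of Fabp7 and of S100b, a calcium-binding protein of glia, at 441 ± 45.1 TPM. The sums of the neuronal and satellite glia lists were thus within 1.12 and 1.11 times of each other across libraries. Apoe and Fabp7 held 65.0% of the summed TPM of the satellite glia list, and single members were less even than the sum, with 6 of 12 differing by 1.5 times or more against 17.8% of all tested genes. The 10 myelinating Schwann cell markers summed to 673, 705 and 924 cpm, highest in library 3.

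Markers of blood and vessel cells were also summed. The 11 erythroid genes that were found summed to 1955, 913 and 1543 cpm, with Hba-a1 and Hbb-bt, chains of adult haemoglobin, at 1215 ± 405 and 1066 ± 356 TPM. Hba-a1 and Hba-a2 are near-identical copies, and unique mapping makes their split uncertain. The embryonic chains were scarce. Hbb-y was at 0.344, 0.108 and 0.0711 cpm, Hba-x at 0.515, 0.144 and 0.213 cpm, and Hbb-bh1 at no more than 0.0356 cpm. The 8 endothelial markers, led by the cadherin Cdh5, summed to 286, 352 and 356 cpm. The 8 mural cell markers, led by Rgs5, summed to 201, 242 and 261 cpm. The 10 macrophage markers, led by the complement chain C1qb, summed to 94.6, 89.0 and 103 cpm. The 10 genes of dividing cells summed to 380, 372 and 454 cpm, with the replication clamp Pcna at 85.1 ± 11.96 TPM, the proliferation antigen Mki67 at 47.5 ± 4.59 TPM and the cyclin Ccna2 at 34.7 ± 12.6 TPM.

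Markers of neighbouring tissue were present at varying level. The 12 muscle markers summed to 545 cpm in library 1, 143 cpm in library 2 and 1078 cpm in library 3. The 10 cartilage markers summed to 177, 129 and 180 cpm, and the 8 bone markers to 66.1, 52.2 and 80.2 cpm. Of the 8 genes of spinal interneurons, only Gad1, a GABA-synthesizing enzyme, reached 1 cpm in all 3 libraries, and the list summed to 6.94, 5.14 and 5.05 cpm. Motor neuron genes summed to 10.9, 19.1 and 17.2 cpm, nearly all of it on Slc5a7, the choline transporter, while Chat was at no more than 0.108 cpm and Mnx1 was without a count in libraries 1 and 3. Markers of central glia summed to 62.9, 45.9 and 54.6 cpm, and 5 of these 7 genes were at 1 cpm or more in each library. Aqp4, Sox8, Aldh1l1 and Slc1a2 held 83.7% of the summed TPM of the list, and Olig1 and Olig2 were its lowest members. Whether this sum came from central tissue was not tested. Epidermal, brown fat and mast cell lists stayed at or under 15.6, 22.6 and 7.11 cpm in every library.

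Sympathetic neuron markers summed to 19.3, 36.2 and 23.3 cpm, and library 2 was the highest. Th, tyrosine hydroxylase, which a class of touch neurons also makes, was even at 16.2, 18.48 and 17.0 cpm. Dbh, the enzyme that makes noradrenaline, was at 0.344, 4.96 and 1.49 cpm, and the noradrenaline transporter Slc6a2 at 0.172, 5.97 and 1.24 cpm. Both genes were highest in library 2 and lowest in library 1, and neither reached the mean of 100 counts used for the counts of varying genes. The list thus held a defining enzyme and transporter at low level in library 2 and near 0 in library 1.

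**Figure D2:**
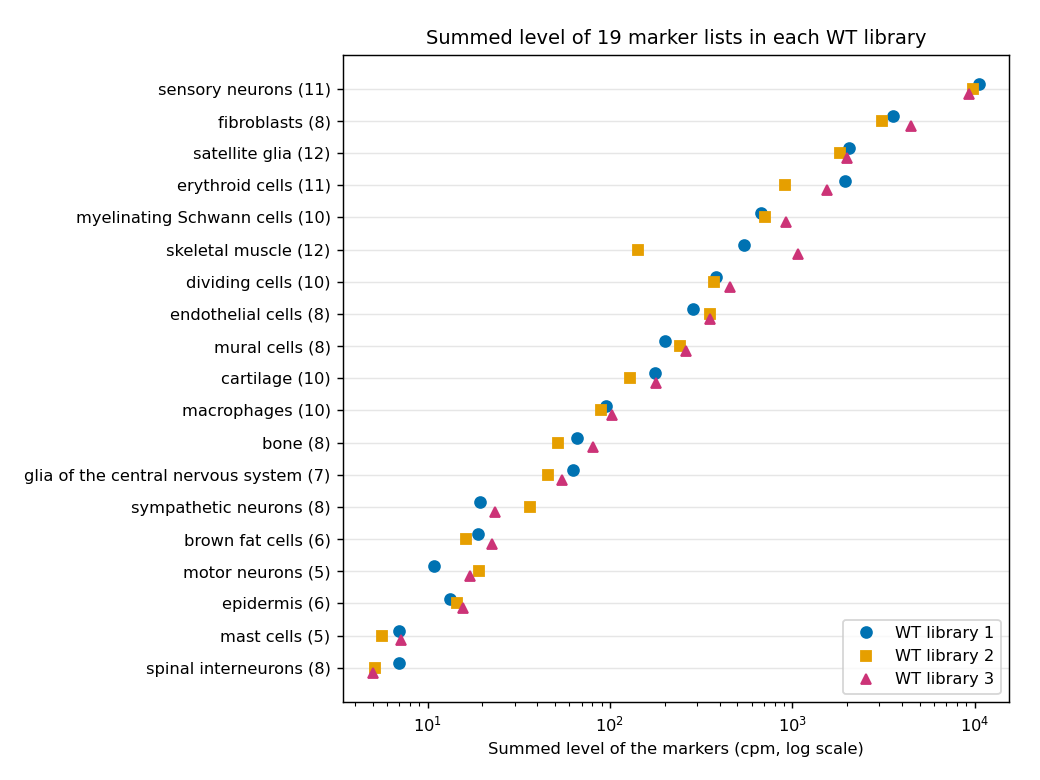
Summed cpm of each marker list (horizontal axis, log scale) in each WT library, with the number of genes found in brackets. Sensory neuron markers sum to between 9366 and 10505 cpm and spinal interneuron markers to at most 6.94 cpm, and the widest gap between libraries is that of skeletal muscle, from 143 cpm in library 2 to 1078 cpm in library 3.

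Receptors for trophic factors decide which target-derived signal a sensory neuron can answer. The low-affinity receptor Ngfr, which binds all neurotrophins, was at 1372, 1027 and 1032 cpm, or 1202 ± 90.3 TPM. Ret, the signalling chain of GDNF family receptors, was at 591, 718 and 748 cpm, or 374 ± 76.1 TPM. Among the coreceptors that pair with Ret, Gfra3 (for artemin) was at 187 ± 57.3 TPM, Gfra2 (for neurturin) at 94.5 ± 18.3 TPM and Gfra1 (for GDNF) at 45.9 ± 8.73 TPM. Ntrk2 and Ntrk3, receptors of BDNF and NT-3 on touch neurons and proprioceptors, were at 39.8 ± 4.07 and 33.2 ± 5.90 TPM. Ntrk2 exceeded Ntrk3 by 1.30, 1.24 and 1.09 times in libraries 1, 2 and 3. The order of Ngfr, Ret, Gfra3, Gfra2 and Gfra1 held in each library, whereas Gfra1 and Ntrk2 were separated by 1.02 to 1.22 times and changed places with the other length.

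RNA of some ligands of these receptors was also present in the libraries. Since the libraries also held markers of muscle and other neighbouring tissue, the cells that made it cannot be told. Ntf3, which encodes NT-3, was at 33.7 ± 5.18 TPM and Bdnf at 22.3 ± 5.34 TPM. Nrtn, Artn, Gdnf and Ntf5 were each below 1 cpm in all 3 libraries, and Pspn had no count. The receptor list summed to 3039, 2940 and 2994 cpm and the ligand list to 51.2, 53.6 and 63.7 cpm. The receptor sum differed by 1.03 times between its extremes and the ligand sum by 1.24 times.

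Transcription factors set and keep sensory identity. Prdm12, a regulator of the nociceptor lineage, was highest by exon length at 385 ± 44.4 TPM, followed by the LIM homeodomain factors Isl2 and Isl1 at 306 ± 50.1 and 242 ± 61.0 TPM. Isl2 exceeded Isl1 in all 3 libraries by exon length but only in 1 with the longest transcript, so their order was not settled. Of the POU factors, Pou4f1 exceeded Pou4f3 by 1.74, 1.88 and 1.67 times in TPM. Etv1, a factor of proprioceptors and other large neurons, was at 148, 224 and 264 cpm, and Maf, a factor of touch neurons, at 96.9, 95.0 and 107 cpm. Runx1, of nociceptors, was at 37.7, 79.9 and 71.0 cpm, and Runx3, of proprioceptors, at 24.9, 18.2 and 18.1 cpm. Runx1 was thus lower in library 1 by over 1.5 times, and per length it exceeded Runx3 by 1.83 and 1.63 times in libraries 2 and 3 but was 0.629 times Runx3 in library 1. With the longest transcript as the length the ratios were 1.002, 2.91 and 2.60, so the order in library 1 depended on the length. Of the 22 genes of this list that were found, 20 were at 1 cpm or more in each library.

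Meis2, the homeodomain factor deleted elsewhere in the study, was even across the WT libraries at 100, 104 and 97.6 cpm, or 30.6 ± 2.99 TPM. Among TALE homeodomain genes, Pbx2, Pknox2 and Meis3 were above it per length, at 41.7 ± 2.59, 38.1 ± 5.83 and 35.9 ± 2.37 TPM. That order held for the union of exons only, since Meis3 was below Meis2 in all 3 libraries with the longest transcript as the length. Meis2 exceeded Meis1 by 5.22, 4.24 and 3.89 times in TPM. All 11 TALE genes were at 1 cpm or more in each library, and 1 of 11, Tgif2, differed by 1.5 times or more, against 17.8% of all tested genes.

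Voltage-gated sodium channels carry the action potential, and several subunits mark nociceptors. Scn10a, which encodes Nav1.8, was at 1005, 1160 and 1052 cpm, or 494 ± 73.4 TPM. Scn7a, a sodium-sensing channel relative found in glia and neurons, was at 268 ± 76.6 TPM, Scn11a (Nav1.9) at 254 ± 66.2 TPM and Scn9a (Nav1.7) at 218 ± 43.2 TPM. These 4 genes made up 92.8% of the summed TPM of the 10 alpha subunits. Scn8a (Nav1.6), the main channel of nodes of Ranvier, was at 31.4 ± 1.95 TPM, and Scn10a exceeded it by 13.3, 18.8 and 15.3 times. The skeletal muscle channel Scn4a was at no more than 3.52 cpm. Among the auxiliary beta subunits, Scn3b was highest at 225 ± 39.0 TPM, followed by Scn2b at 93.5 ± 11.9 TPM.

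The channel of light touch and proprioception, Piezo2, was among the most even genes of the sensory families, at 1159, 1133 and 1115 cpm. It exceeded Piezo1, which is found in vessels and many other cells, by 19.9, 24.99 and 23.6 times in TPM. Asic3, Asic2 and Asic1, channels opened by protons, were at 94.5 ± 11.96, 80.1 ± 11.9 and 74.9 ± 8.53 TPM, and Asic2 and Asic1 were not in the same order in all libraries. Asic5 had no count.

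Channels of heat and cold were present at lower levels. Trpv1, the capsaicin receptor, was at 47.8, 63.7 and 55.0 cpm, or 55.5 ± 11.99 TPM, and Trpm8, the menthol and cold receptor, at 31.8, 55.1 and 53.9 cpm, or 36.9 ± 12.9 TPM. Trpa1, the receptor of mustard oil, was near the detection limit at 1.13, 1.15 and 1.28 cpm. Of the 22 TRP genes, 15 reached 1 cpm in each library.

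Receptors of non-peptidergic nociceptors and itch neurons were concentrated in single genes. The Mas-related receptor Mrgprx1 was at 237, 368 and 345 cpm, or 995 ± 293 TPM, and made up 87.6% of the summed TPM of its list. Mrgprd, the mark of a class of non-peptidergic nociceptors, was at 69.3, 104 and 94.7 cpm. Mrgprx1 exceeded Mrgprd by 9.12, 9.45 and 9.71 times in TPM, a ratio that hardly moved although both genes were lowest in library 1. Mrgpra3, a receptor of itch neurons, was at 0.584, 0.683 and 0.782 cpm, and Mrgprb4 and Mrgprb5 were at no more than 0.0719 and 0.0711 cpm. P2rx3, the ATP-gated channel of the same nociceptors, was even at 301, 285 and 278 cpm and held 92.6% of the summed TPM of the 7 P2X genes. P2rx7 and P2rx2 followed at 10.7 ± 3.19 and 7.66 ± 0.335 TPM.

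Peptide precursors were led by Calca, which encodes calcitonin and CGRP, at 308, 346 and 376 cpm, or 750 ± 136 TPM. Scg2, a granin of secretory vesicles, was at 412 ± 57.5 TPM and Gal, galanin, at 343 ± 25.6 TPM. Tac1, the precursor of substance P, was at 133 ± 37.5 TPM and Adcyap1, the precursor of PACAP, at 117 ± 40.5 TPM. Calca exceeded Calcb by 10.9, 8.64 and 9.74 times in TPM. Sst and Npy, at no more than 1.99 and 2.27 cpm, and Vip, at no more than 2.78 cpm, were far below these. The opioid receptors were all at 1 cpm or more but low, with the nociceptin receptor Oprl1 at 25.4 ± 5.44 TPM, the delta receptor Oprd1 at 7.88 ± 1.61 TPM and the mu receptor Oprm1 at 3.89 ± 0.612 TPM.

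Genes of mechanoreceptors and proprioceptors were led by Pvalb, the calcium buffer parvalbumin of proprioceptors, at 54.1, 44.7 and 49.1 cpm, or 172 ± 9.18 TPM. Cntnap2, which clusters potassium channels along myelinated axons, was at 74.8 ± 5.82 TPM. The calbindins Calb1 and Calb2 were at 22.9 ± 4.96 and 8.73 ± 1.35 TPM. Spp1, osteopontin, was uneven at 21.7, 15.2 and 40.6 cpm, and it is also a product of bone.

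**Figure D3:**
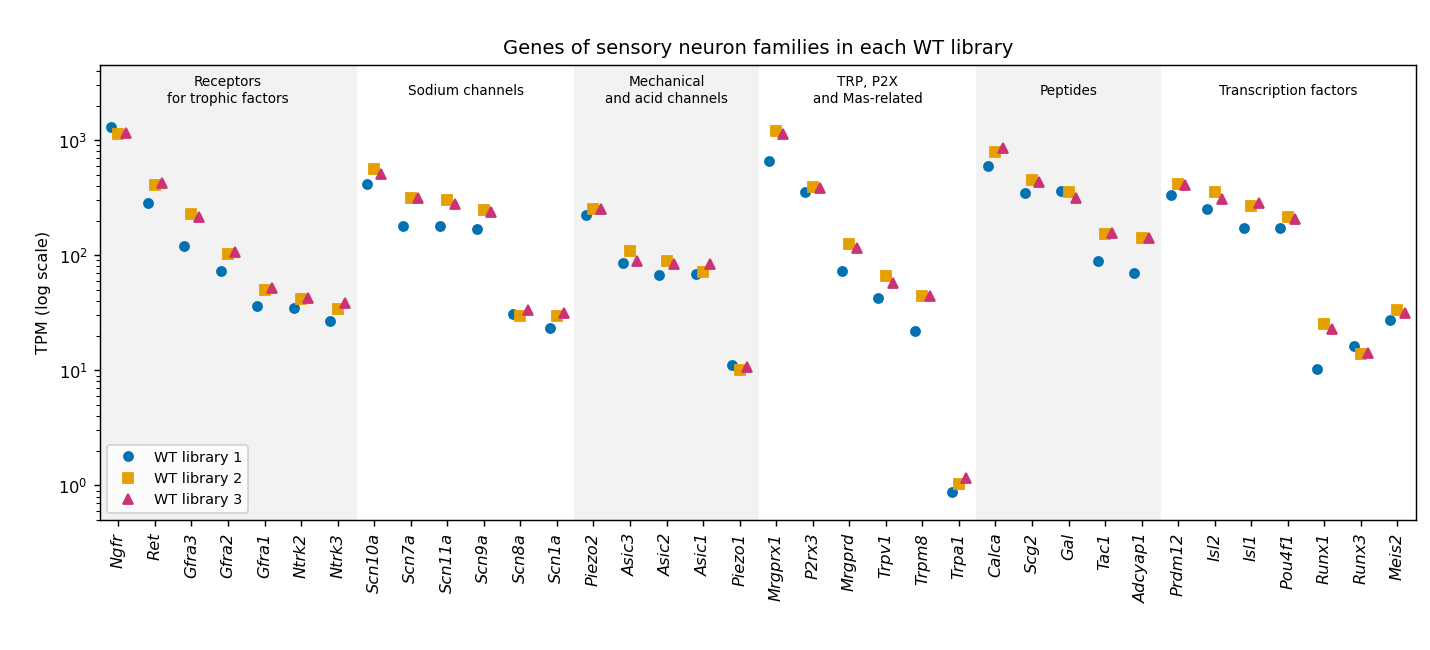
TPM (vertical axis, log scale) of genes of 6 sensory families in each WT library, 1 point per library. Within a family the order of most genes is the same in each library, from Ngfr at 1202 to Ntrk3 at 33.2 mean TPM among the receptors. A gene is followed across libraries by cpm in the text, since TPM also moves with the mitochondrial share of a library.

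Sensory neurons release glutamate and respond to GABA. The vesicular transporter Slc17a6 (VGLUT2) was at 392, 521 and 512 cpm and exceeded Slc17a7 (VGLUT1) by 10.7, 16.4 and 13.2 times in TPM. The kainate receptor subunit Grik1 was at 540, 724 and 643 cpm, and held 56.2% of the summed TPM of the 18 ionotropic glutamate receptor subunits, with Grik5 and Grin1 next at 58.0 ± 5.02 and 55.1 ± 0.493 TPM. The GABA(A) receptor subunit Gabra3 was at 41.4, 44.3 and 48.4 cpm, or 41.8 ± 6.67 TPM. The chloride importer Slc12a2 (NKCC1) was at 112, 159 and 168 cpm, and the chloride exporter Slc12a5 (KCC2) at 5.46, 4.39 and 4.20 cpm. Per length the importer exceeded the exporter by 14.004, 24.7 and 27.3 times. Chrnb2, a nicotinic receptor subunit, led its family at 29.8 ± 4.09 TPM. Cplx1, a complexin that clamps vesicle fusion, led the release machinery at 1178 ± 118 TPM, ahead of the vesicle GTPase Rab3a at 624 ± 34.1 TPM and Syt11 at 566 ± 75.1 TPM.

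Neurofilament and axon genes took a visible share of each library. The 11 intermediate filament genes took 1.64% of all counts on average and summed to 21769 cpm in library 1, 13146 cpm in library 2 and 14227 cpm in library 3. Nefm was at 7794, 3637 and 4128 cpm, highest in library 1 by 1.89 times over library 3. Nefl was highest in library 1 as well, whereas Ina (internexin) at 419, 430 and 432 cpm and Vim (vimentin) at 1365, 1260 and 1269 cpm were even. Nefl and Nefm overlap on opposite strands of chromosome 14, and whether counting used the strand is not given in the sources used here, so reads of the overlap may not be told apart. The 18 growth cone and microtubule genes took 2.15% of all counts and the 13 tubulins 0.915%. Gap43, a membrane protein of growing axons, was at 1227, 848 and 812 cpm, and Map1b, which binds axonal microtubules, was at 5588, 5081 and 5305 cpm.

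The Hox genes gave the summed level of each paralogue group along the body axis. Of 39 Hox genes, 27 were at 1 cpm or more in each library. The 2 genes of group 7, Hoxa7 and Hoxb7, summed to 108, 117 and 118 TPM in libraries 1, 2 and 3, the highest of any group. Groups 8, 9 and 10 summed to a mean of 70.9, 85.5 and 77.8 TPM, group 11 to 9.41 TPM, and groups 12 and 13 to 0.920 and 0.405 TPM. Group 1 summed to 52.5 TPM, nearly all of it from Hoxd1 at 51.7 ± 7.51 TPM. The order of the 4 highest groups, 7, 9, 10 and 8, was the same in each library, although groups 10 and 8 were at 71.2 and 70.9 TPM in library 2. The axial levels dissected are not stated.

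What varied among the libraries was counted over the 12736 genes with a mean of at least 100 counts. The highest library was at least 1.5 times the lowest in 2261 of these genes, or 17.8%. Without library 1 that count was 183, or 1.44%. Without library 2 it was 1858 and without library 3 it was 1592. The median coefficient of variation was 11.6% (quartiles 6.49% and 18.3%). Among 12720 nuclear genes with a count in every library, library 1 was the one farthest from the mean log2 level of the other two in 69.8%, library 2 in 14.5% and library 3 in 15.7%.

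Library 1 was at least 1.5 times above both others in 312 genes, or 2.45%, and both others were at least 1.5 times above library 1 in 883 genes, or 6.93%. This balance changed with the scaling. With TMM the counts were 542 above and 437 below, with DESeq2's size factors 549 and 432, and with totals that left out mitochondrial genes 454 and 557. The median nuclear gene was 0.12 lower on the log2 cpm scale in library 1 than in the mean of the others.

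The genes lower in library 1 were poor in G and C. Their median exonic GC content was 41.9% against 49.5% for all tested genes, and that of the genes higher in library 1 was 54.9%. Across the 12718 nuclear genes with known GC content, Xist and the 4 Y-linked genes left out, the rank correlation between GC content and the log2 difference of library 1 from the others was 0.59 as a description across genes. In the fifth of genes with the lowest GC content the median difference was -0.44, and in the fifth with the highest it was 0.14. With levels centred within 20 bins of GC content, an alternative chosen after seeing the data, 1184 genes in place of 2261 differed by 1.5 times, 116 in place of 883 were lower in library 1 and 408 in place of 312 were higher. Of the 883 genes, 104 were still lower after centring. Centring also took out the overall shift of library 1, which the cpm values kept. With TMM, which makes no use of GC content, 437 genes were lower and 542 higher in library 1. Set beside TMM, both counts were thus smaller after centring. The part of base composition and of the mitochondrial share in these differences was not tested.

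**Figure D4:**
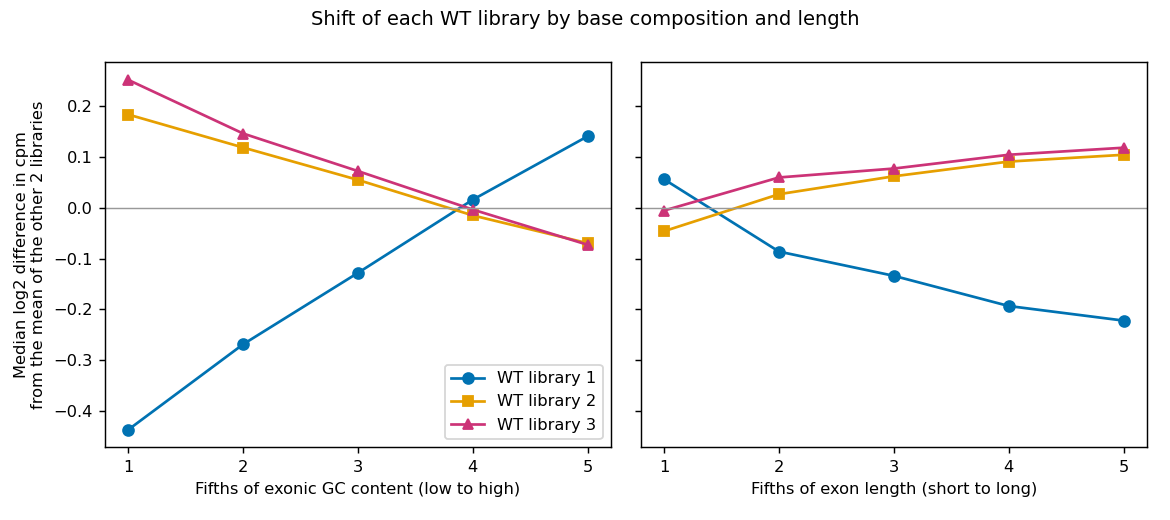
Median log2 difference in cpm of each WT library from the mean log2 level of the other 2 libraries (vertical axis) over 5 equal bins of exonic GC content (left) and of exon length (right), for 12718 nuclear genes. Library 1 rises from -0.44 to 0.14 with GC content and falls from 0.06 to -0.22 with length, while libraries 2 and 3 move the other way.

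The 5 genes farthest above both others in library 1 included 3 that were mitochondrial or copies of mitochondrial sequence. The mitochondrial tRNA gene mt-Tm was at 33.9, 5.28 and 4.84 cpm, and Gm10925 and Gm28437, nuclear pseudogenes of mitochondrial sequence on chromosome 1, were at 13.7, 2.44 and 2.03 cpm and at 7.18, 1.62 and 1.81 cpm. The ribosomal RNA gene n-R5-8s1 was at 9.14, 1.29 and 1.64 cpm. S100a9, a calcium-binding protein of neutrophils, was at 7.90, 1.65 and 2.13 cpm. In the other direction, library 1 was lowest in Steap4, a metalloreductase (3.81, 12.1 and 11.3 cpm), in Cyyr1 (3.09, 8.88 and 8.39 cpm), in Esm1, a secreted product of endothelial tip cells (1.79, 4.82 and 6.51 cpm), and in Egr3, an immediate early factor of muscle spindles and neurons (2.89, 7.40 and 11.3 cpm). Each of these 4 genes was still over 1.5 times lower in library 1 after GC centring, with Egr3 at 2.998, 7.32 and 11.2 centred cpm and Steap4 at 4.48, 11.3 and 10.4 centred cpm. The microRNA gene Mir703 was at 0.756, 6.36 and 8.60 cpm, the largest ratio in that direction.

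Members of the marker lists were among the genes low in library 1. Among endothelial markers 3 of 8 were at least 1.5 times lower in library 1 than in both others, such as the VEGF receptor Kdr at 33.6, 60.5 and 58.8 cpm, and among satellite glia markers 3 of 12. The background share of such genes was 6.93%. Other members went the other way, and 2 of the 8 endothelial and 4 of the 12 satellite glia markers were highest in library 1. The background share of that was 31.5%. Among satellite glia markers 1 of 12 was at least 1.5 times above both others in library 1, against 2.45% of all tested genes. After GC centring Kdr was at 36.1, 58.7 and 56.4 cpm, and its gap remained over 1.5 times. None of 11 sensory neuron markers but Elavl4 was lower in library 1 by that measure, and Elavl4, an RNA-binding protein of neurons, moved from 281, 479 and 493 cpm to 358, 433 and 428 centred cpm. Of 78 cytosolic ribosomal protein genes tested, 58 were highest in library 1, against 31.5% of all tested genes. Of 57 potassium and HCN channel genes, 42 were lowest there, against 57.3% of all tested genes.

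In library 2 only 14 genes, or 0.11%, were at least 1.5 times above both others, and the 5 farthest were all long non-coding RNAs. Meg3, an imprinted RNA of neurons and other cells on chromosome 12, was at 726, 1375 and 561 cpm. Mir124a-1hg, named as a microRNA host gene, on chromosome 14, was at 13.9, 35.6 and 19.9 cpm, Miat at 80.0, 138 and 79.4 cpm, AI480526 at 3.68, 8.38 and 4.91 cpm, and Mirg at 14.5, 24.3 and 13.7 cpm. Rian, named after its values were seen because it lies between Meg3 and Mirg, was at 651, 1514 and 951 cpm. In the mm10 assembly the 3 imprinted RNAs lie on the plus strand at chr12:109541001-109571726 (Meg3), chr12:109603940-109661716 (Rian) and chr12:109729764-109749460 (Mirg), and all 3 were highest in library 2.

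Meg3, Rian and Mirg carry microRNAs, and mature sequences are shown for those whose host stood out in a library. Within the spans of Meg3, Rian and Mirg, the RefSeq entries used here (GRCm38.p6), which are not complete, hold 3, 6 and 26 mature microRNAs, and the 26 of Mirg use 25 different seeds. Mature microRNAs have no poly(A) tail and were not measured here. A few are given 5′ to 3′ with the seed, bases 2 to 8, in capitals:
mmu-miR-770-5p in Meg3, chr12:109563710-109563731, plus strand: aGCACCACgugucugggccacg
mmu-miR-370-3p in Rian, chr12:109618305-109618326, plus strand: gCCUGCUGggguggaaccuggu
mmu-miR-134-5p in Mirg, chr12:109734145-109734166, plus strand: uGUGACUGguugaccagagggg
mmu-miR-453 in Mirg, chr12:109735669-109735692, plus strand: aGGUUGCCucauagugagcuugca
mmu-miR-496a-5p in Mirg, chr12:109739132-109739152, plus strand: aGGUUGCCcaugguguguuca
mmu-miR-703, the product of Mir703, chr5:98475616-98475636, minus strand: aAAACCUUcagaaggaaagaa
The seeds of miR-453 and miR-496a-5p are the same, and they are the only pair among the listed microRNAs of Mirg to share one.

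Library 2 was lowest in the products of muscle and blood. Both other libraries were at least 1.5 times above it in 80 genes, or 0.628%. Albumin (Alb), a plasma protein made by liver, was at 18.2, 0.539 and 13.2 cpm. The fetal myosin Myh8 was at 78.5, 12.6 and 138 cpm, and the fast troponins Tnnc2, Tnni2 and Tnnt3 were at 36.4, 6.83 and 41.8 cpm, at 50.3, 9.45 and 54.0 cpm and at 59.2, 11.97 and 83.2 cpm. All 10 muscle markers tested were lowest in library 2 by at least 1.5 times, and all 6 erythroid markers tested were lowest there, against 21.4% of all tested genes, 3 of them by that margin. Hbb-bs was at 951, 476 and 838 cpm, and the cartilage collagen Col2a1 at 69.4, 38.6 and 76.3 cpm. Of 6 cartilage markers tested, 4 were lowest in library 2 by at least 1.5 times. Muscle, erythroid and cartilage markers were thus low together in library 2, and their part in other differences was not tested.

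In library 3, 71 genes, or 0.557%, were at least 1.5 times above both others. After Xist, which coats the inactive X chromosome, came Mmp9, a matrix protease, at 2.37, 2.62 and 16.2 cpm. Myot, a protein of the muscle Z-disc, was at 2.10, 1.22 and 12.9 cpm, Atp1b4, a muscle protein of the inner nuclear membrane, at 3.54, 1.65 and 20.3 cpm, and the slow myosin Myh7 at 5.74, 1.80 and 28.8 cpm. Of the 10 muscle markers tested, all were highest in library 3, against 39.4% of all tested genes, and 7 by at least 1.5 times, with Acta1, skeletal alpha-actin, at 145, 50.6 and 374 cpm. Markers of myelinating Schwann cells were highest in library 3 in 8 of 8 tested genes, against the same 39.4%, and 4 by at least 1.5 times. Prx, periaxin, which holds myelin in shape, was at 29.1, 25.4 and 50.9 cpm, and Egr2, the factor that starts myelination, at 2.99, 2.66 and 6.04 cpm. Satellite glia markers were highest in library 3 in 7 of 12 genes, against 39.4% of all tested genes, and in 0 of 12 by at least 1.5 times over both others. Of the tested genes, 9 of 10 of dividing cells, 7 of 9 of macrophages and 6 of 8 of fibroblasts were also highest there. By at least 1.5 times over both others these were 0, 0 and 1 genes. Sensory neuron markers were highest in library 3 in 2 of 11 genes.

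Library 3 was at least 1.5 times below both others in 12 genes, or 0.0942%. The Y-linked genes Ddx3y, Eif2s3y, Kdm5d and Uty had no count in library 3. They were at 85.7, 30.6, 23.7 and 21.5 cpm in library 1 and at 108, 41.1, 28.0 and 30.4 cpm in library 2. Against a floor of 3 counts in library 3, or 0.107 cpm, Ddx3y was at least 804-fold higher in each other library and Uty at least 201-fold higher. Xist was at 0.275, 0.575 and 351 cpm. Library 3 thus carries RNA with Xist and without Y-linked transcripts, and libraries 1 and 2 the opposite, so in these data sex cannot be told apart from library 3. The transporter Slc47a1 was the next gene, at 7.08, 7.51 and 3.27 cpm.

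**Figure D5:**
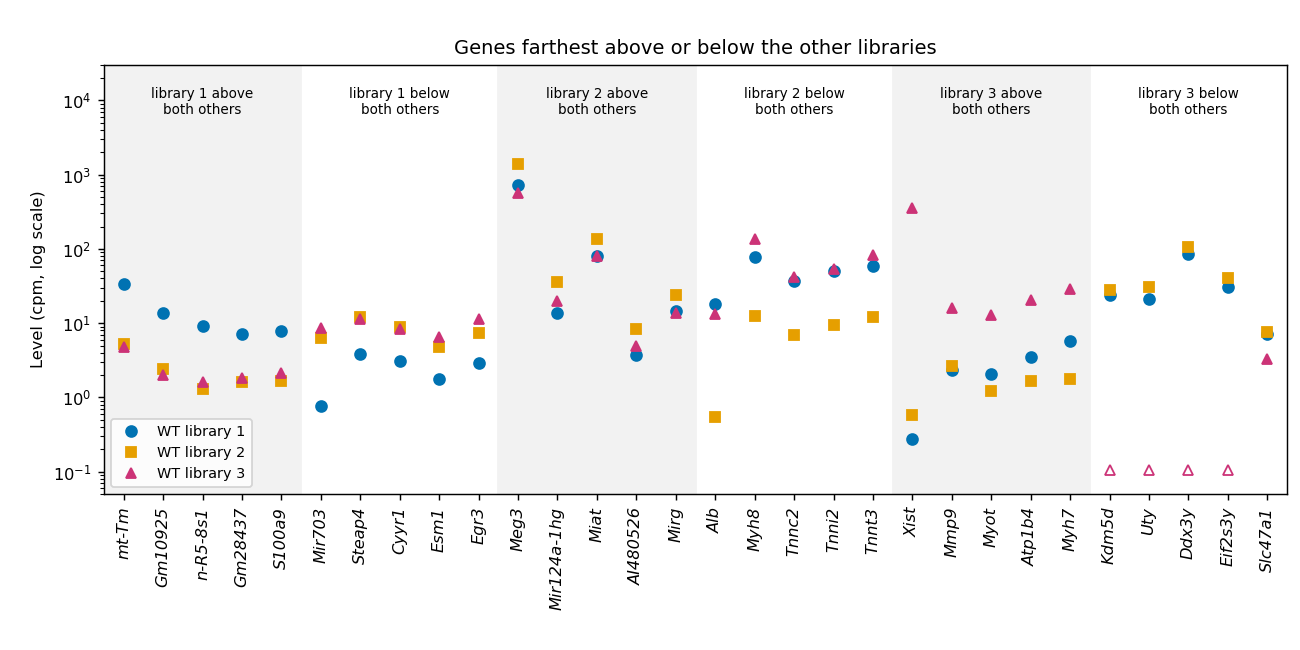
Level in cpm (vertical axis, log scale) in each WT library of the 5 genes farthest above and the 5 farthest below both other libraries, for libraries 1, 2 and 3 in turn. Open triangles mark genes with no count in library 3, drawn at the floor of 0.107 cpm, and Xist at 351 cpm is the widest gap.

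At the other end, many genes hardly moved. Of the 6107 genes with a mean of at least 1000 counts, the median coefficient of variation was 10.7%, and the 10 with the lowest were Adgrl1, Colgalt1, Chmp3, Tom1l1, Slc4a8, Fam131b, Zeb1, Rbm6, Birc6 and Ndufa11, all at or under 0.317%. Adgrl1, an adhesion receptor of synapses, was at 246.9, 246.4 and 246.1 cpm. The lowest values out of 6107 genes are a selection and fall below counting error, so they describe these libraries and name no reference gene. Among the lists, the release machinery was even, with 2 of 21 genes differing by 1.5 times or more and a median coefficient of variation of 8.39%, against 11.6% for all tested genes. The calcium channel alpha subunits were at 6.02%, with 0 of 7 differing by that much. The P2X receptors were at 5.96% over 4 tested genes, of which 1, P2rx7, differed by 1.5 times or more. The least even lists were the sex chromosome genes at 89.3%, skeletal muscle at 80.6% and mitochondrially encoded genes at 51.2%, followed by bone at 45.6% over 3 tested genes, erythroid cells at 39.4%, cartilage at 38.6% and myelinating Schwann cells at 35.8%. In the muscle, erythroid and Schwann cell lists, 10 of 10, 6 of 6 and 6 of 8 tested genes differed by 1.5 times or more, against the background of 17.8%.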

How the data were processed

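RNA of E18.5 DRGs was extracted with RNeasy columns, selected for poly(A) and made into CORALL libraries with molecular identifiers. The authors deposited raw read counts per gene, made from uniquely mapped, deduplicated reads with STAR 2.7.10 on mm10 and HTSeq 0.6, as named in the methods and the submitters' processing notes. The annotation release and the strand setting of the counting are not given in the sources used here. The same table holds the fold changes, p-values and scores of the study's own comparisons, which were not used, and the counts of the other genotypes, which were not used either.

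Counts of the 3 WT libraries were divided by the library total (cpm). For levels between genes they were divided by the union of exons in GENCODE M21 (TPM), for the 55154 of 55247 identifiers that matched. Symbols that had been turned into dates were restored for 15 genes, and Drgx and Ahsp were not matched. A gene was taken to vary where the highest library was at least 1.5 times the lowest, with a mean of at least 100 counts. No test was made, since only 1 group was described. The spread between libraries is given as SD, and counting error limits genes of few counts. Scaling by edgeR 4.0.16 (TMM) and DESeq2 1.42.0, other filters, fold limits, lengths and left-out libraries were alternatives, and centring by GC content was added after seeing the data. Steps were run in R 4.3.3 and Python 3.11.15 with pandas 2.3.3, numpy 2.4.6 and scipy 1.17.1, and tested on simulated data.

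Named genes were the 4 markers and Meis2, the 15 highest nuclear and 3 highest mitochondrial genes, the 3 highest members of each list and neuronal family members with a described role, the 5 genes farthest above and below in each library, 5 sex chromosome genes, and the 10 most even genes. Members of marker lists named beyond this rule, such as Kdr, Elavl4, Prx, Egr2, Dbh, Slc6a2, Chat, Mnx1, Col2a1, Mki67 and the embryonic globins, were chosen after their values were seen. The genes and lists were chosen with earlier results of these data known. Some members of the lists are not reported here.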

Additional observations from a re-analysis of the deposited data

How the results depend on the processing

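No paired analysis was possible because a single genotype was described. Of 2261 varying genes, 312 with library 1 above and 883 with it below, TMM gave 542 above and 437 below, DESeq2's size factors 549 and 432, and totals without mitochondrial genes 557 below. With a mean of at least 1000 counts, 876 genes varied, with 114 above and 419 below in library 1, 4 and 19 in library 2, and 12 and 1 in library 3. With no filter, 16875 varied, with 3706 and 3317 in library 1, 2785 and 2505 in library 2, and 3119 and 2061 in library 3. At a fold limit of 1.2, 7534 varied, with 1429 and 3744, 165 and 345, and 491 and 124. At a limit of 2, 333 varied, with 54 and 51, 0 and 43, and 35 and 5. GC centring gave 1184 varying genes, 116 below in library 1 and 9 above in library 2, and centring by GC content and length 1166 and 133. Leaving out 1 library gave 183 to 1858 varying genes. Of the 15 highest nuclear genes, 7 stayed among the highest 15 by cpm without length. The number of marker lists whose sums differed by at least 1.5 times was 5 with all libraries and 2 to 4 with 1 left out. Genes at the detection limit in all libraries numbered 19262 at 0.1 cpm and 9928 at 10 cpm. The cause of these moves was not tested beyond what fewer genes or libraries, or another limit, set by construction. Low counts limit what can be said of genes near 1 cpm, and 3 libraries of unknown pooling limit every SD.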

Other observations

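Gene groups outside the account above were also even or uneven by library. Among potassium channels, Kcna6, a Kv1 subunit, was highest at 164 ± 36.7 TPM, ahead of Kcnd1 at 73.2 ± 10.6 TPM and the sodium-activated channel Kcnt1 at 65.9 ± 9.59 TPM, whose order turned with the longest transcript as the length. Kcnk18, the TRESK leak channel of sensory neurons, was at 29.5, 50.0 and 44.1 cpm in libraries 1, 2 and 3. The N-type calcium channel subunit Cacna1b was even at 270, 277 and 261 cpm. Of 15 Notch pathway genes, all were at 1 cpm or more in each library, led by the effector Hey2 at 59.5 ± 10.7 TPM. Of the laminins, Lamc1, Lamb1 and Lama4, chains of the basement membrane, were highest at 228 ± 29.2, 143 ± 23.4 and 91.6 ± 16.4 TPM.

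Imprinted genes were among the less even groups, with 9 of 13 differing by 1.5 times or more against the background of 17.8%. H19 was at 2713, 1249 and 1923 cpm and Cdkn1c, a cell cycle inhibitor, at 194, 98.5 and 158 cpm, both lowest in library 2. Dlk1 was at 131, 50.4 and 137 cpm, lowest in library 2 as well, whereas Meg3, which lies near it on chromosome 12, was highest there. Nnat, neuronatin, was at 782, 366 and 347 cpm, highest in library 1. Immediate early and injury response genes ranged widely. Beside the peptide gene Gal, Jun led the list at 111, 82.5 and 90.9 cpm, or 108 ± 7.80 TPM, whereas Fos was at 2.65, 2.77 and 2.49 cpm and Atf3 at 1.44, 1.15 and 2.06 cpm.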
